A study of Mus musculus with 6 samples.

Results

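The genes described here are 10 members of the interleukin-1 (IL-1) system and of the epithelial alarmins, taken by name from the 43629 genes in the count table: Il1a, Il1b, Il18, Il33 and Tslp (cytokines), Il1rn (antagonist), and Il1r1, Il1rap, Il1r2 and Il1rl1 (receptors). They were listed by their known roles and not by a threshold on these values, with earlier results of these data known. All 10 had enough reads to be tested. They were measured by RNA-seq in keratinocytes of 3 control and 3 Dnmt1Δ/Δep mice. In Dnmt1Δ/Δep mice, a Cre recombinase under the keratin 5 promoter, active in the basal layer of the epidermis and in other stratified epithelia, deletes floxed Dnmt1, the gene of the maintenance DNA methyltransferase. The study lists Dnmt1 f/f and Dnmt1 f/+ mice, without Cre, as controls, and in a survival figure also counts heterozygous mice with Cre among them. According to the methods, all mice were on a mixed C57BL/6J and 129SV background. The genotype of each single control is not given in the labels, and every sample is labelled female. Epidermis was taken at P3 (postnatal day 3) and its cells were grown in keratinocyte growth medium low in calcium, for 5 days according to the labels and methods and for a shorter time according to a figure legend of the study, so the profiles describe cultured cells and not skin.

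IL-1α, IL-33 and IL-18 are stored in epithelial cells and released or activated upon damage, and TSLP (thymic stromal lymphopoietin) is secreted by keratinocytes and acts on dendritic cells and type 2 lymphocytes. Both IL-1α and IL-1β bind the receptor IL-1R1, which needs the accessory chain IL-1RAP to signal through MyD88 to NF-κB. The antagonist IL-1Ra, encoded by Il1rn, occupies IL-1R1 without signalling, IL-1R2 is a decoy receptor that binds IL-1 without transmitting a signal, and ST2, encoded by Il1rl1, is the receptor for IL-33 and shares IL-1RAP. In the skin, IL-1α of keratinocytes is known as an early trigger of chemokine production.

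Il1a and Il1b are neighbouring genes on the reverse strand of chromosome 2, Il1a at chr2:129299610-129309972 and Il1b at chr2:129364570-129371139 (GRCm38, GENCODE M21). Their promoters are shown because Il1a was the only one of the 10 genes called changed, whereas Il1b next to it remained almost without reads. The 250 bases before each annotated start are from RefSeq on GRCm38.p6, at chr2:129309973-129310222 and chr2:129371140-129371389, both on the reverse strand and written 5′ to 3′. Capitals mark the dinucleotide CG, the target of Dnmt1, and the AP-1 motif TGANTCA.
Il1a: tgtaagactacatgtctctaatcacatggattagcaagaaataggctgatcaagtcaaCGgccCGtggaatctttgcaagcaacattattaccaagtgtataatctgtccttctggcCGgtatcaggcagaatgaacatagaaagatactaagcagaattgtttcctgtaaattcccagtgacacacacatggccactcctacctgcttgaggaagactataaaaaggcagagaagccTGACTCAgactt
Il1b: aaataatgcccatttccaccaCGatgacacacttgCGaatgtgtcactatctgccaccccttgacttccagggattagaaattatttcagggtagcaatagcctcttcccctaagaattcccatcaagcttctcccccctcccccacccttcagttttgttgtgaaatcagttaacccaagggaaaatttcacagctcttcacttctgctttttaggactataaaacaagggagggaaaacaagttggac
The Il1a window held 3 CG dinucleotides and the Il1b window held 2, where the median over 32851 RefSeq promoter windows of this length was 6 and 37.8% of them held 3 or fewer. Both windows had a TATA box (TATAAA), which began 32 bases before the start of Il1a and 31 bases before that of Il1b, and which 12.4% of all windows held on either strand. The AP-1 motif, which is its own reverse complement, lay 12 to 6 bases before the start of Il1a and was not found in the Il1b window, and 6.75% of all windows held it. No match to the NF-κB consensus (held by 7.25% of all windows) or to the core of the interferon-stimulated response element (held by 2.98%) was found in either window on either strand. A window was found for 9 of the 10 genes, with 14 windows in all. Their CG counts ranged from 0 at one start of Il1rl1 to 30 at Il1rap, and Il1r2 had 14. The AP-1 motif also lay 141 to 135 bases before a start of Il1rn, which was not called. With both strands searched, a match to the NF-κB consensus was found at a start of Il1r1. TATA boxes were also found for Il18 and Il33. Methylation of these windows was not measured in the files used here.

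Values are CPM, read counts scaled to the normalized library size, and fold changes are Dnmt1Δ/Δep over control. A gene was called when its adjusted p in edgeR's quasi-likelihood test (Benjamini-Hochberg, 16829 genes tested) did not exceed 0.05 and its log2 fold change reached 1 or -1. Libraries held between 53433121 and 115526598 gene reads, and a count of 0 allows up to 3 counts, or 0.0254 to 0.0558 CPM, for counting error alone. The deleted gene Dnmt1 had 394, 379 and 324 CPM in control replicates 1 to 3 and 49.7, 54.3 and 50.7 CPM in the Dnmt1Δ/Δep replicates. Xist was low in Dnmt1Δ/Δep replicate 2 (93.0 CPM) against 727 to 1276 CPM in the other 5 libraries, while 4 Y-linked genes summed to at most 0.0678 CPM in each library. This library stands apart, and the results are also given without it. According to the methods, the libraries of each group are biological replicates from 3 mice.

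Of the 10 genes, 1 was called higher (Il1a) and 0 were called lower, where 6.03% of all tested genes were called higher and 0.392% lower. DESeq2 called the same numbers, 1 and 0, and 3 of the 10 were higher and 1 lower at an unadjusted p under 0.05 in edgeR. For counts at an unadjusted p, here and below, no share over all tested genes is given. They therefore cannot be set against a background. At the adjusted p alone, 2 of the 10 passed (Il1a and Il1r1), against 9.36% of all tested genes. Control and Dnmt1Δ/Δep libraries did not overlap for 3 of the 10 (Il1a, Il1r1 and Il1rap), against 29.9% of all tested genes, so this share was that of the background. Il1a was called under all 12 alternatives tried. Without Dnmt1Δ/Δep replicate 2, Il1a was still the 1 gene called, and the log2 fold changes of genes that were not called were 1.405 for Il1b, -0.45 for Il1rn, 0.94 for Il18, -0.05 for Tslp, -0.90 for Il1r2 and 0.30 for Il1rap. The median log2 fold change was 0.56 over the 10 genes and -0.00 over all tested genes, and 7 of the 10 values were above 0.

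**Figure D1:**
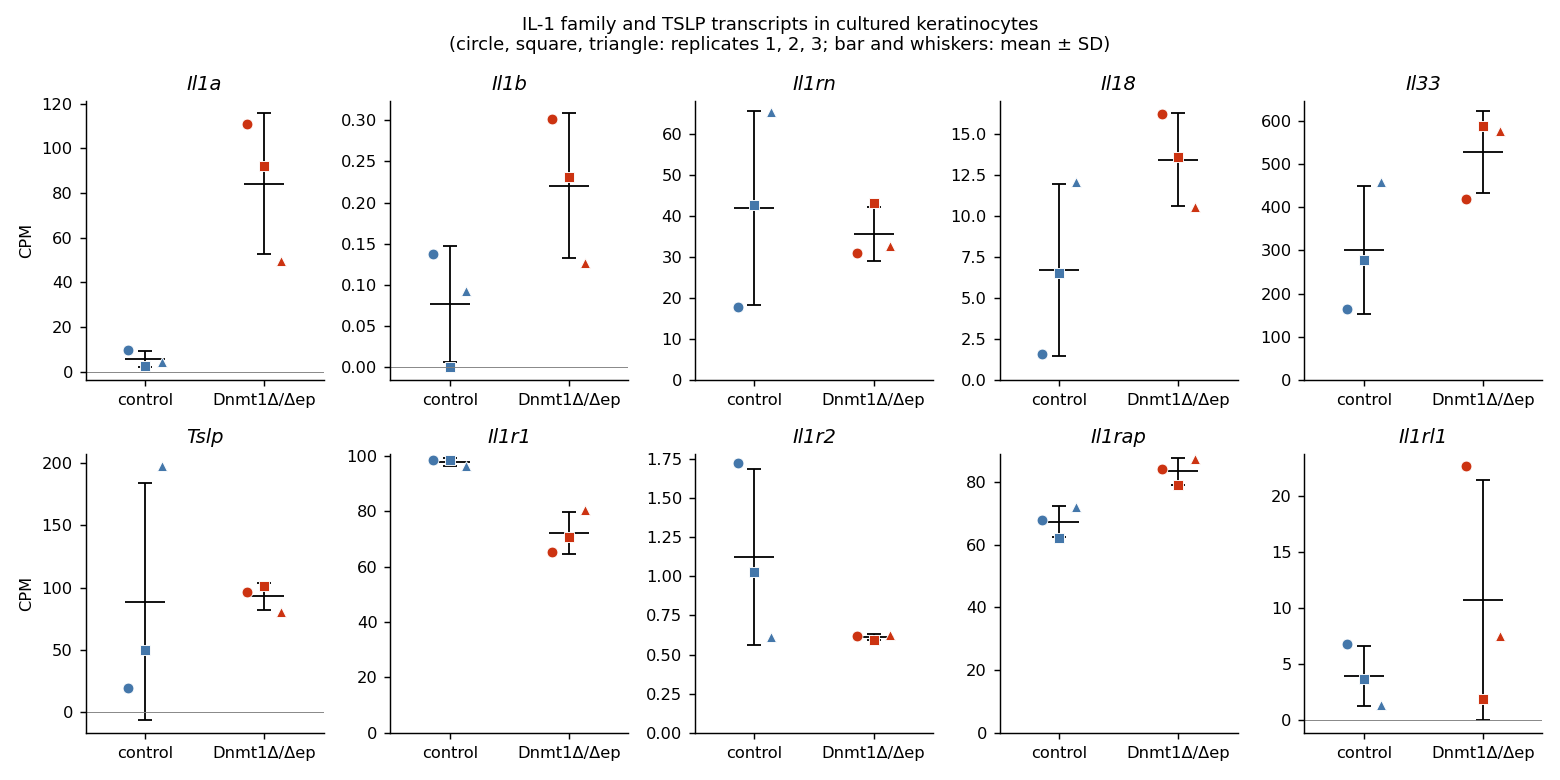
CPM (vertical axes, each from 0 or below) of the 10 genes in 3 control (blue) and 3 Dnmt1Δ/Δep (red) libraries, with circles, squares and triangles for replicates 1, 2 and 3 and black bars for mean ± SD. Il1a lies between 49.5 and 111 CPM in Dnmt1Δ/Δep libraries and between 2.53 and 9.57 CPM in control libraries, whereas Tslp spans 19.4 to 197 CPM among the controls alone.

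Il1a (ENSMUSG00000027399), the gene of IL-1α, rose about 15.2-fold in Dnmt1Δ/Δep keratinocytes. It had 9.57, 2.53 and 4.45 CPM in control replicates 1, 2 and 3 and 111, 92.0 and 49.5 CPM in the Dnmt1Δ/Δep replicates. The lowest Dnmt1Δ/Δep library was far above the highest control, and the groups did not overlap. By edgeR's quasi-likelihood test this was a log2 fold change of 3.93 ± 0.54 (standard error), with a Benjamini-Hochberg adjusted p = 0.0057. Within the pairs of same-numbered libraries, the log2 differences were 3.53, 5.17 and 3.47, so the rise was present in 3 of 3 pairs. Without Dnmt1Δ/Δep replicate 2, the log2 fold change was 3.81 (adjusted p = 0.022 by edgeR), and without control replicate 1 it was 4.61. Of the Il1a exon bases, 11.3% overlap the gene Gm14023 on the other strand, and the strandedness of the counting is not given in the sources used here. Gm14023 had between 40 and 78 reads in each of the 6 libraries, where Il1a had between 239 and 7956, and its log2 fold change was 0.03.

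Il1b (ENSMUSG00000027398), the gene of the secreted cytokine IL-1β that is mainly made by myeloid cells, was close to the detection limit. Control libraries held 13, 0 and 5 reads of it and Dnmt1Δ/Δep libraries held 18, 20 and 15. In CPM this was 0.137, 0 and 0.0931 against 0.302, 0.231 and 0.127, with overlap between the groups. Its log2 fold change, 1.505 (95% interval -0.63 to 3.64, adjusted p = 0.39 by edgeR), could not be told from 0 at this depth, and leaving out control replicate 1 gave 2.48 and leaving out control replicate 2 gave 0.87. Il1bos, a transcript antisense to Il1b that overlaps 1.31% of the exon bases of Il1b, had 31, 12 and 7 reads in control and 105, 74 and 110 reads in Dnmt1Δ/Δep libraries (log2 fold change 2.57, adjusted p = 0.023 by edgeR). It was looked at because of the overlap.

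Il1rn (ENSMUSG00000026981), the gene of the receptor antagonist, was not called. It had 17.8, 42.6 and 65.2 CPM in control and 31.0, 43.1 and 32.7 CPM in Dnmt1Δ/Δep libraries. All 3 of the latter lay inside the control range. The log2 fold change was -0.23 (standard error 0.41, 95% interval -1.19 to 0.73, adjusted p = 0.82 by edgeR), and it was 0.23 without control replicate 3 and -0.06 with the replicate number as a block. The difference within pairs was 0.79, 0.02 and -0.997 on the log2 scale.

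Levels of different genes were compared per kilobase of exon (RPKM). The ratio of Il1a to Il1rn was 1.503, 0.167 and 0.191 in control and 10.05, 5.98 and 4.25 in Dnmt1Δ/Δep replicates. In 2 of 3 control libraries the antagonist transcript exceeded the agonist, and in 3 of 3 Dnmt1Δ/Δep libraries the agonist exceeded the antagonist. This order depends on the exon lengths used, which join all annotated exons, 1974 bases for Il1a and 5535 for Il1rn. In CPM, Il1rn exceeded Il1a in every control library, with 17.8 against 9.57 in replicate 1. Il1a exceeded Il1rn in every Dnmt1Δ/Δep library in CPM as well. The mean log2 ratio differed by 4.13, which is 17.5-fold (exact two-sided permutation test, p = 0.1, the smallest p that 3 libraries against 3 allow). The size of this fold depends on control replicate 1, whose ratio was far above those of the other controls and lowers it.

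**Figure D2:**
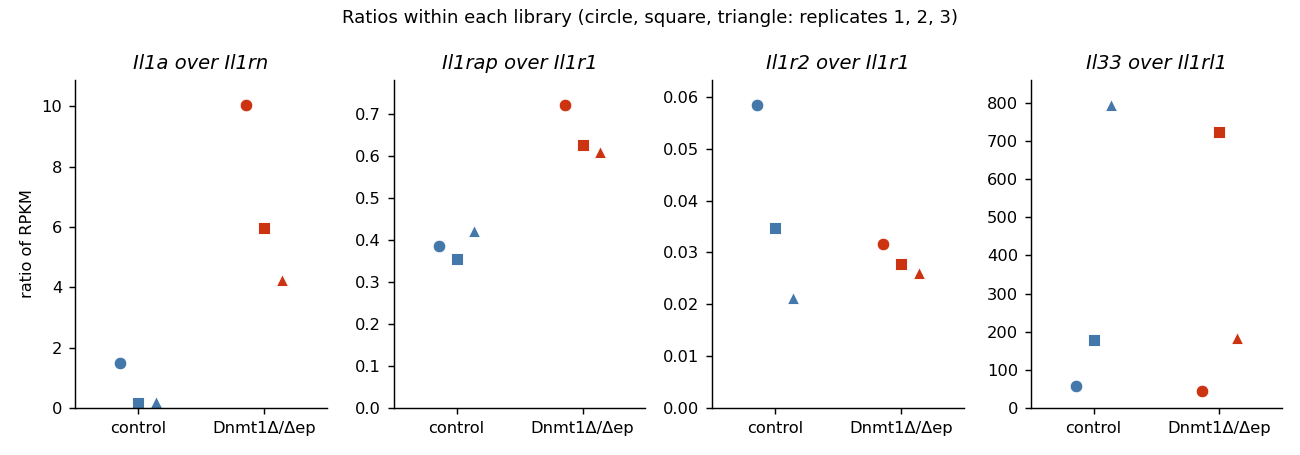
Ratios of RPKM within each library (vertical axes, linear from 0) for 4 gene pairs in control (blue) and Dnmt1Δ/Δep (red) libraries, with circles, squares and triangles for replicates 1, 2 and 3. Groups are separate for Il1a over Il1rn (4.25 to 10.05 against 0.167 to 1.503) and Il1rap over Il1r1, and overlap for Il1r2 over Il1r1 and Il33 over Il1rl1.

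Il33 (ENSMUSG00000024810), a nuclear alarmin of epithelial cells that activates ST2 on mast cells and type 2 lymphocytes, had the highest median RPKM of the 10 genes in both groups. It had 165, 278 and 458 CPM in control and 419, 588 and 577 CPM in Dnmt1Δ/Δep libraries. Control replicate 3 reached into the range of the Dnmt1Δ/Δep libraries, so the groups overlapped. The log2 fold change of 0.82 did not pass the test (standard error 0.34, 95% interval 0.01 to 1.62, unadjusted p = 0.047, adjusted p = 0.21 by edgeR). Without control replicate 3 it was 1.25 with an adjusted p of 0.040 (edgeR), which meets both thresholds, and without Dnmt1Δ/Δep replicate 2 it was 0.68. With the replicate number as a block the adjusted p was 0.042 (edgeR), and the log2 fold change of 0.92 was under the fold threshold. Il33 was higher in the Dnmt1Δ/Δep library of 3 of 3 pairs, by 1.35, 1.08 and 0.33 on the log2 scale.

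Il18 (ENSMUSG00000039217), whose product is cut by caspase-1, had 1.59, 6.52 and 12.1 CPM in control and 16.2, 13.6 and 10.5 CPM in Dnmt1Δ/Δep libraries. Only control replicate 3 overlapped with the Dnmt1Δ/Δep values. On the log2 scale the fitted difference was 1.01 (95% interval -0.41 to 2.43, adjusted p = 0.38 by edgeR). It was 0.54 when control replicate 1 was left out and 1.73 when control replicate 3 was.

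Tslp (ENSMUSG00000024379) had the widest spread among the controls of the 8 genes with a mean of at least 1 CPM. It had 19.4, 49.8 and 197 CPM in control and 96.6, 102 and 80.8 CPM in Dnmt1Δ/Δep libraries. All 3 Dnmt1Δ/Δep values lay between control replicates 2 and 3. The log2 fold change was 0.07 (standard error 0.71, 95% interval -1.59 to 1.73, adjusted p = 0.98 by edgeR), and it was -0.41 when control replicate 1 was left out and 1.42 when control replicate 3 was. Blocking on the replicate number gave 0.72 (adjusted p = 0.55 by edgeR). The pairs went in different directions, with log2 differences of 2.31, 1.03 and -1.29.

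Of the receptor genes, Il1r1 and Il1rap differed by small amounts in opposite directions. Il1r1 (ENSMUSG00000026072), the signalling receptor, had 98.3, 98.6 and 96.2 CPM in control and 65.4, 70.8 and 80.4 CPM in Dnmt1Δ/Δep libraries. All 3 Dnmt1Δ/Δep values were below all 3 controls. Its log2 fold change, -0.44 with a standard error of 0.10 (adjusted p = 0.041 by edgeR), passed the adjusted p and not the fold threshold, and its adjusted p ranged from 0.0089 to 0.15 over the alternatives. Without Dnmt1Δ/Δep replicate 2 this adjusted p was 0.10. In pairs, the log2 differences were -0.59, -0.48 and -0.26.

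Il1rap (ENSMUSG00000022514), the accessory chain used by both the IL-1 and the IL-33 receptor, had 67.8, 62.2 and 72.1 CPM in control and 84.1, 78.9 and 87.4 CPM in Dnmt1Δ/Δep libraries. All 3 Dnmt1Δ/Δep values were above the controls, but close to them. The log2 fold change was 0.31 (standard error 0.10, 95% interval 0.08 to 0.54, adjusted p = 0.099 by edgeR), and with the replicate number as a block the adjusted p was 0.044. The pairs differed by 0.31, 0.34 and 0.28 on the log2 scale. Of the exon bases, 4.86% overlap Gm20319 on the other strand, which had at most 27 reads in a library.

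In RPKM, control replicates had 0.386, 0.353 and 0.420 Il1rap per Il1r1 and Dnmt1Δ/Δep replicates had 0.721, 0.625 and 0.609, without overlap. This is a 1.69-fold difference (exact two-sided permutation test, p = 0.1, the smallest possible). Of 5 ratios compared, 3 had separate groups (Il1a to Il1rn, Il1rap to Il1r1 and Il33 to Il1a), each with p = 0.167 in the exact permutation test after Benjamini-Hochberg adjustment over the 5.

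The decoy receptor gene Il1r2 (ENSMUSG00000026073) was expressed at a low level. It had 1.72, 1.03 and 0.614 CPM in control and 0.621, 0.590 and 0.627 CPM in Dnmt1Δ/Δep libraries. Control replicate 3 lay within the narrow Dnmt1Δ/Δep range. Its fitted log2 fold change was -0.88 (standard error 0.39, 95% interval -1.80 to 0.04, adjusted p = 0.23 by edgeR), and -0.44 without control replicate 1. Per kilobase, Il1r2 transcripts were 0.0584, 0.0347 and 0.0213 of those of Il1r1 in control and 0.0316, 0.0278 and 0.0260 in Dnmt1Δ/Δep libraries, with overlap (exact two-sided permutation test, p = 0.6).

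Il1rl1 (ENSMUSG00000026069), the gene of the IL-33 receptor ST2, had 6.78, 3.70 and 1.38 CPM in control and 22.7, 1.94 and 7.56 CPM in Dnmt1Δ/Δep libraries. Dnmt1Δ/Δep replicate 2 was below 2 of the controls, and the other 2 Dnmt1Δ/Δep libraries were above all controls. The fitted difference was 1.43 on the log2 scale (95% interval -0.60 to 3.45, adjusted p = 0.39 by edgeR), and it was 0.26 without Dnmt1Δ/Δep replicate 1 (adjusted p = 0.92), 1.87 without Dnmt1Δ/Δep replicate 2 (adjusted p = 0.19) and 2.05 without control replicate 1. The summed CPM of 7 fibroblast markers was also low in Dnmt1Δ/Δep replicate 2 and high in replicates 1 and 3, with 17.5, 28.2 and 12.3 in control and 59.2, 12.1 and 50.3 in Dnmt1Δ/Δep libraries, and their part in the Il1rl1 values was not tested. In bulk RNA, more cells of one type and more RNA per cell cannot be told apart.

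**Figure D3:**
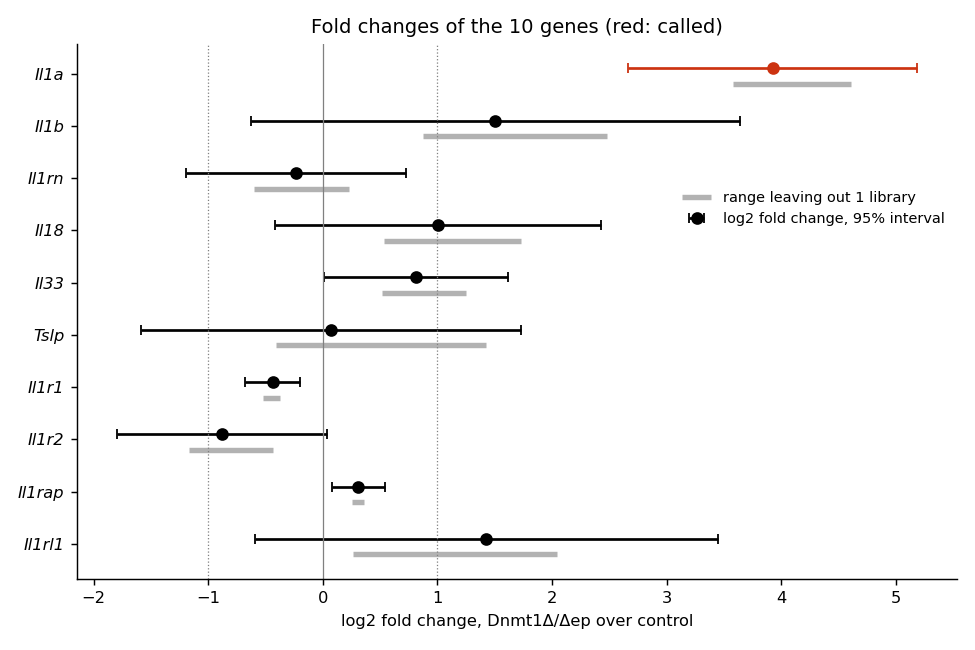
Log2 fold change of each gene (horizontal axis, Dnmt1Δ/Δep over control, dotted lines at -1 and 1) with its 95% interval, and in grey the range when 1 library is left out. Il1a, in red, is the one gene called, and its range without 1 library stays between 3.57 and 4.61, whereas the range of Tslp runs from -0.41 to 1.42.

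Ordered by median RPKM, the control libraries had Il33 first (96.3 RPKM, range 57.0 to 159), then Tslp, Il1r1, Il1rn, Il18, Il1rap, Il1a, Il1r2, Il1rl1 and Il1b. The ranges of neighbours in this order overlapped for Il33 and Tslp, Tslp and Il1r1, Il1rn and Il18, Il18 and Il1rap, and Il1r2 and Il1rl1, and were separate for the other neighbours. In Dnmt1Δ/Δep libraries the order was Il33 (200.04 RPKM, range 145 to 204), Tslp, Il1a, Il18, Il1r1, Il1rap, Il1rn, Il1rl1, Il1r2 and Il1b. Il1a stood at rank 7 in control, with a median of 2.25 RPKM, and at rank 3 in Dnmt1Δ/Δep libraries, with 46.6 RPKM and a range separate from those of both neighbours. Overlapping neighbours in Dnmt1Δ/Δep libraries were Il18 and Il1r1, Il1rap and Il1rn, and Il1rl1 and Il1r2. In RPKM, Il33 was 11.8, 75.0 and 70.4 times Il1a in the control replicates and 2.58, 4.37 and 7.98 times Il1a in the Dnmt1Δ/Δep replicates (exact two-sided permutation test, p = 0.1).

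Several of the cytokine genes, and the antagonist, had a wide spread among the control libraries. The highest over the lowest CPM was 10.2 for Tslp, 7.62 for Il18, 3.65 for Il1rn and 2.78 for Il33 in control, and 1.26, 1.54, 1.39 and 1.404 in Dnmt1Δ/Δep libraries. Control replicate 1 was the lowest and control replicate 3 the highest for these 4 genes, and the order was different for the other genes with a wide spread in control. Il1a (3.78 in control and 2.24 in Dnmt1Δ/Δep libraries) was highest in control replicate 1 and lowest in control replicate 2. Il1rl1 (4.92 and 11.7) was highest in control replicate 1 and lowest in control replicate 3. Over the 12431 tested genes with a mean of at least 1 CPM, this ratio had a median of 1.29 among controls and 1.202 among Dnmt1Δ/Δep libraries, and 64.0% of the genes were wider in control. Krt1, a keratin of differentiating cells, followed the same order in control (53.2, 356 and 530 CPM) and was at 66.1, 59.2 and 65.5 CPM in Dnmt1Δ/Δep libraries, and its part in these values was not tested. Of the 10 keratinocyte markers, 3 had this order in control, 3 had its reverse and 4 had another order. The first were Krt1, Perp (2515, 3666 and 4322 CPM) and Trp63 (279, 289 and 376 CPM). The reverse was seen for Itga6 (839, 411 and 363 CPM), Itgb4 (1107, 920.0 and 726 CPM) and Col17a1 (1897, 1765 and 1604 CPM), while Krt5, Krt14, Krt10 and Dsg3 were highest in control replicate 2. Of the 8 genes, 6 were wider in control, and Il1rl1 and Il1r1 (1.02 in control and 1.23 in Dnmt1Δ/Δep libraries) were wider in Dnmt1Δ/Δep libraries.

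The neighbours of the genes on the chromosome were looked at next. Within 200 kb of Il1a and Il1b, none of the other protein-coding genes tested (Polr1b, Chchd5, Slc20a1 and Ckap2l) was called, with log2 fold changes between -0.18 for Ckap2l and 0.45 for Slc20a1. In the cluster of Il1rn and the IL-36 genes, also on chromosome 2, Il36a (listed as Il1f6) was called, and its neighbours Il36g (Il1f9, 0.29) and Il36rn (Il1f5, -0.03) were not. Psd4, the gene after Il1rn, passed the adjusted p and not the fold threshold (log2 fold change 0.58, adjusted p = 0.022 by edgeR). It had 30.5, 35.2 and 36.8 CPM in control and 47.3, 50.6 and 55.4 CPM in Dnmt1Δ/Δep libraries, without overlap. In the receptor cluster on chromosome 1, which runs from Il1r2 over Il1r1, Il1rl2, Il1rl1 and Il18r1 to Il18rap, 0 genes were called by edgeR or by DESeq2 (0 higher and 2 lower at an unadjusted p under 0.05 in edgeR), and the log2 fold changes ranged from -0.88 for Il1r2 to 1.43 for Il1rl1.

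**Figure D4:**
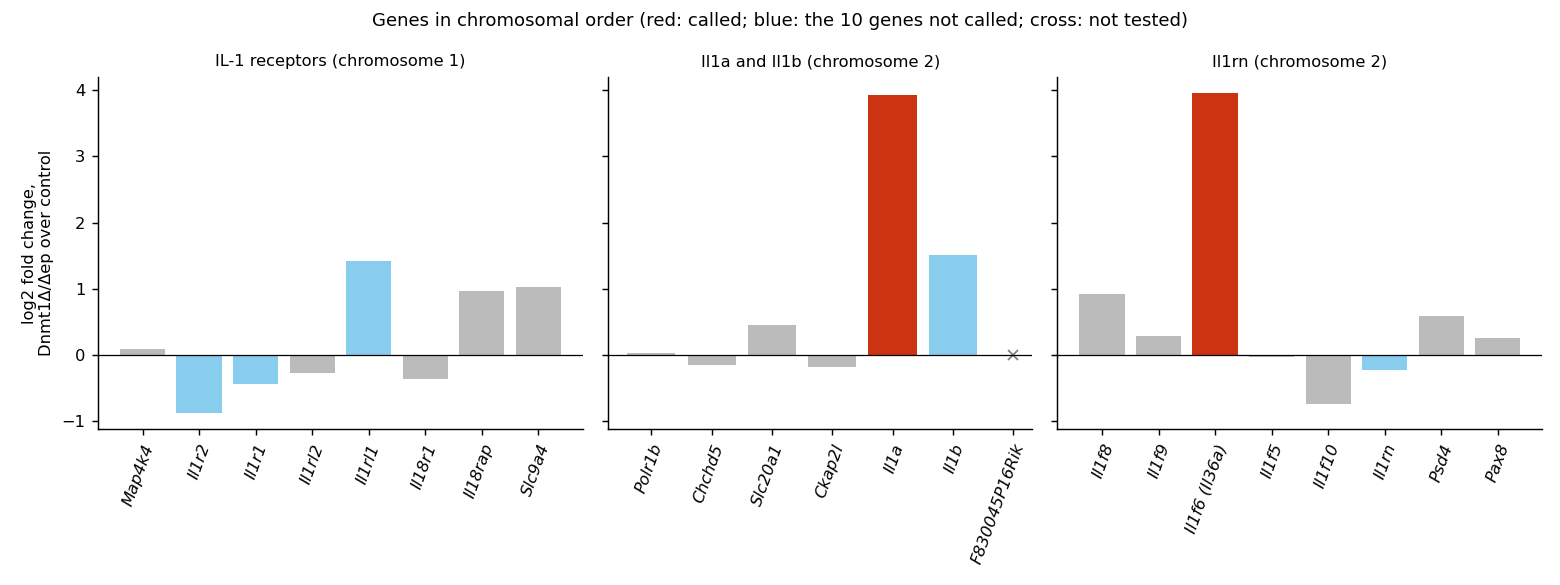
Log2 fold change (vertical axis, Dnmt1Δ/Δep over control) of protein-coding genes in chromosomal order around the IL-1 receptor genes, Il1a and Il1b, and Il1rn. Called genes are red (Il1a at 3.93 and Il36a at 3.95), the other genes of the 10 are blue, further neighbours are grey, and a cross marks a gene that was not tested.

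The other genes of the pathway were taken from 6 lists of 82 genes, of which 74 were tested, 16 were called higher and 0 lower (18 and 0 by DESeq2, and 25 and 4 at an unadjusted p under 0.05 in edgeR), with a median log2 fold change of 0.18. Over all tested genes, 6.03% were called higher and 0.392% lower by edgeR, and DESeq2 called 1393 genes higher. Of the 5 further IL-1 family ligands, 1 was called. Il36a, an IL-36 agonist of epithelia, had 0.190, 0.236 and 0.354 CPM in control and 4.66, 4.43 and 2.81 CPM in Dnmt1Δ/Δep libraries, without overlap (log2 fold change 3.95, standard error 0.35, adjusted p = 0.00099 by edgeR). Its log2 fold change was thus close to that of Il1a. None of the 5 further receptors tested was called by edgeR or DESeq2 (1 higher and 1 lower at an unadjusted p under 0.05 in edgeR), with Il1rl2, the IL-36 receptor, at -0.27 (adjusted p = 0.16 by edgeR).

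Of 13 genes of IL-1 processing and release that were tested, 2 were called higher and 0 lower (3 and 0 by DESeq2, 6 and 0 at an unadjusted p under 0.05 in edgeR), against 6.03% called higher among all tested genes, and the median log2 fold change was 0.26. Aim2, a sensor of cytosolic DNA that assembles an inflammasome, had 0.529, 0.934 and 1.396 CPM in control and 16.1, 13.1 and 16.3 CPM in Dnmt1Δ/Δep libraries (log2 fold change 4.01, adjusted p = 0.00097 by edgeR). Casp1, the protease that matures IL-1β and IL-18, had 0.201, 0.277 and 0.186 CPM in control and 0.939, 0.590 and 1.69 CPM in Dnmt1Δ/Δep libraries (2.26, adjusted p = 0.024 by edgeR). Both rose from low levels, and Casp1 was no longer called when any 1 of control replicate 2, control replicate 3, Dnmt1Δ/Δep replicate 1 or Dnmt1Δ/Δep replicate 3 was left out, which left 1 or 2 genes of the list called. With the replicate number as a block, 4 genes of this list were called, the others being Casp4 (adjusted p = 0.036 by edgeR) and Nlrp1a (0.039). Nlrp1a had 0, 11 and 0 reads in control and 82, 147 and 0 reads in Dnmt1Δ/Δep replicates 1 to 3, with overlap. The most abundant genes of the list, the calpains Capn2 (0.12) and Capn1 (-0.19) and the kinase Nek7 (0.01), were not called. Pycard, the inflammasome adaptor, was at -0.70 and was called lower without control replicate 1 (-1.01, adjusted p = 0.035 by edgeR). Nlrp3, Nlrc4 and Mefv had too few reads to be tested.

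None of the 24 signal transducers below the IL-1 receptors was called by edgeR or DESeq2 (1 higher and 1 lower at an unadjusted p under 0.05 in edgeR), and their median log2 fold change was 0.02. Nfkbia, the NF-κB inhibitor that is itself an NF-κB target, rose below the fold threshold (log2 fold change 0.92, adjusted p = 0.0092 by edgeR), and was called without control replicate 3. The abundant transducers Tollip (-0.07) and Rela (-0.12) did not pass the test.

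Of 19 tested genes known to be induced by IL-1 in epithelial cells, 13 were called higher and 0 lower, with a median log2 fold change of 2.17, against 6.03% called higher among all tested genes. The list was written with earlier results of these data known, so its count is not independent evidence. Among neutrophil-attracting chemokines, Cxcl1 had 23.0, 6.75 and 14.2 CPM in control and 139, 129 and 100.2 CPM in Dnmt1Δ/Δep libraries (log2 fold change 3.06, adjusted p = 0.0056 by edgeR). Cxcl5 had 7.22, 0.831 and 1.64 CPM in control and 88.2, 93.5 and 93.5 CPM in Dnmt1Δ/Δep libraries (4.81, adjusted p = 0.0096). Of the 13 called genes, 6 were highest in control replicate 1 among the controls, as Il1a was, and 7 were highest in control replicate 3. Cxcl2 (2.9996), Cxcl3 (4.22), the monocyte attractant Ccl2 (3.43), the growth factors Csf2 (5.13) and Csf3 (4.03), and the cytokine Tnf (2.73) were called as well. So were Tnfaip3 (1.39) and Zc3h12a (2.17), which restrain NF-κB signalling and cytokine mRNA, the alarmins S100a8 (1.504) and S100a9 (1.48), and the acute-phase gene Saa3, for which no fold is given because each control library held at most 3 of its reads. Ptgs2 (0.42) was not called, and Ccl20 (1.91, adjusted p = 0.082 by edgeR) was called only without control replicate 3, by DESeq2 and without a filter on low counts. Several fold changes depended on 1 library. Without control replicate 1, the log2 fold change was 3.75 for Cxcl2, 6.08 for Cxcl3, 6.27 for Cxcl5 and 5.498 for Csf3. It was 2.704 for Ccl2 without Dnmt1Δ/Δep replicate 1 and 3.33 for Tnf without control replicate 3. Without Dnmt1Δ/Δep replicate 1 or without Dnmt1Δ/Δep replicate 2, 8 of these genes were called, and Cxcl3, S100a8 and S100a9 were lost in both cases. Leaving out either control replicate 3 or Dnmt1Δ/Δep replicate 3 lost Cxcl3 too. S100a9 stayed called only without control replicate 3 among the left-out libraries, and was lost at a mean RPKM of at least 1. Zc3h12a was lost without control replicate 2, Dnmt1Δ/Δep replicate 2 or Dnmt1Δ/Δep replicate 3, and Saa3 without control replicate 2, without Dnmt1Δ/Δep replicate 2 and at a mean RPKM of at least 1. Csf3 and Cxcl2 were lost without Dnmt1Δ/Δep replicate 1. Cxcl1, Cxcl5, Ccl2, Csf2, Tnf and Tnfaip3 were called under each of these settings.

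Of the 8 tested genes of the TSLP pathway, 0 were called by edgeR or DESeq2 (1 higher and 2 lower at an unadjusted p under 0.05 in edgeR), and the median log2 fold change was -0.22. The vitamin D receptor Vdr (-0.46) and its partner Rxra (-0.65), nuclear receptors known to control Tslp in keratinocytes, and the kinase Jak1 (-0.23) were the most abundant.

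**Figure D5:**
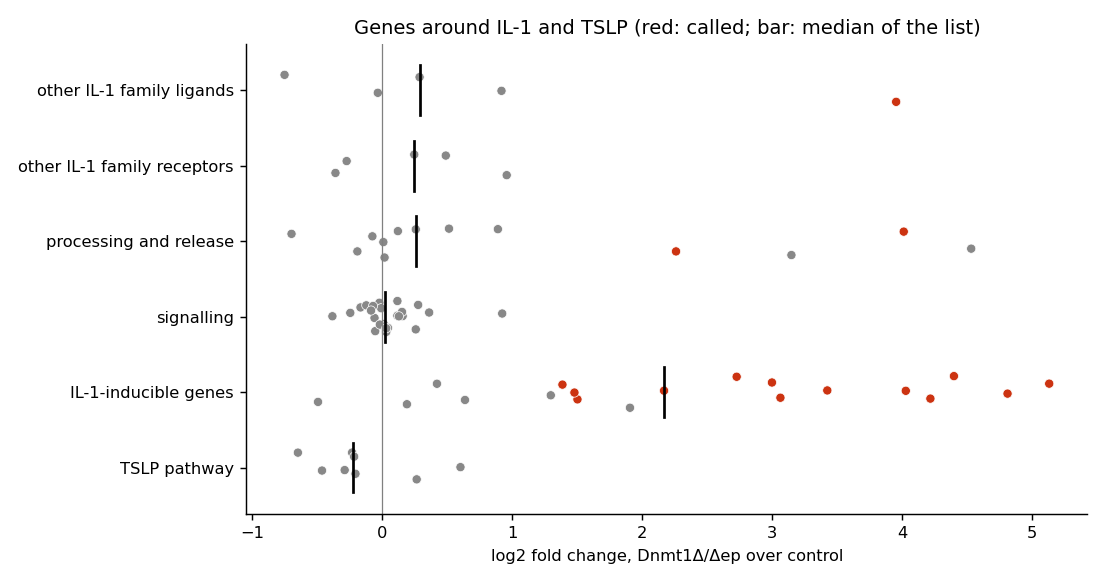
Log2 fold change (horizontal axis, Dnmt1Δ/Δep over control) of the 74 tested genes in 6 lists, 1 point per gene with called genes in red and a black bar at the median of each list. The IL-1-inducible genes have their median at 2.17 with 13 of 19 called, whereas the 24 signalling genes lie around 0.02 with 0 called.

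The genes most like Il1a over the 6 libraries, by the root mean square difference of log2 CPM centred on each gene's mean among 12463 genes, were 1110002E22Rik (0.43), Csf3 (0.44), Cdh5 (0.47), 8030451A03Rik (0.47) and Cxcl1 (0.48). This is a description over 6 libraries of 2 groups, and any gene that rises by a like amount scores low.

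Markers of other cell types were checked because IL-1β, ST2 and TSLP pathway genes are also expressed by immune and stromal cells. The keratinocyte markers summed to between 34574 and 37740 CPM in control and between 25532 and 26153 CPM in Dnmt1Δ/Δep libraries, with all 10 markers expressed and Krt5, Krt14 and Col17a1 lower at the adjusted p alone. The 13 macrophage and dendritic cell markers summed to 2.54 to 3.16 CPM in control and 5.56 to 7.30 CPM in Dnmt1Δ/Δep libraries, with Csf1r and Itgam called higher and without overlap of the sums. Of the exon bases of Itgam, 68.7% overlap Gm49368 on the same strand, and of those of Csf1r, 15.1% overlap Hmgxb3 on the other strand, so their counts may include or lack reads shared with these genes. Cd74 had 0, 0 and 0.130 CPM in control and 0.487, 0.162 and 0.364 CPM in Dnmt1Δ/Δep libraries, and H2-Aa (at most 0.161 CPM) and Itgax (at most 0.0578 CPM) were also without overlap. Ptprc reached 0.201 CPM in Dnmt1Δ/Δep replicate 1. Cd14, the largest part of the control sums, had 2.84, 1.92 and 1.82 CPM in control and 2.55, 2.81 and 2.92 CPM in Dnmt1Δ/Δep libraries. Its groups overlapped (log2 fold change 0.33, adjusted p = 0.48 by edgeR), as did those of Mrc1 (adjusted p = 0.45 by edgeR). The markers Adgre1, Cd207, C1qa, C1qb and Lyz2 were at or near 0 in both groups, at no more than 0.101 CPM. The 8 neutrophil markers summed to 0.159 to 0.521 CPM in control and 0.576 to 1.28 CPM in Dnmt1Δ/Δep libraries, without overlap. Most of this was the chemokine receptor Cxcr2 (log2 fold change 1.95, adjusted p = 0.054 by edgeR), and Csf3r and Retnlg were at 0. The 8 mast cell markers summed to 3.55 to 8.53 CPM in control and 11.04 to 15.2 CPM in Dnmt1Δ/Δep libraries, nearly all of it Kit, with Cpa3, Mcpt4, Tpsab1 and Fcer1a at 0. The 7 T cell markers found summed to 1.27 to 2.22 CPM in control and 2.41 to 3.82 CPM in Dnmt1Δ/Δep libraries, nearly all of it Thy1 (log2 fold change 0.78, adjusted p = 0.17 by edgeR), which is also expressed outside T cells. Cd3e, Cd3d, Cd4, Cd8a and Trac were at no more than 0.0694 CPM in each library, and Cd3g was at 0. Endothelial markers summed to 5.29 to 17.3 CPM in control and 14.5 to 22.1 CPM in Dnmt1Δ/Δep libraries, and the groups overlapped. Pecam1 and Cdh5 were called higher, Tek and Emcn overlapped between the groups, and Kdr, the most abundant in control, had 13.3, 4.37 and 2.75 CPM in control and 6.39, 3.09 and 8.87 CPM in Dnmt1Δ/Δep libraries. Melanocyte markers summed to 207 to 546 CPM in control and 659 to 887 CPM in Dnmt1Δ/Δep libraries, without overlap, and the adjusted p of the 6 genes by edgeR lay between 0.072 and 0.49. Their part in the rise of Il1a was not tested.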

How the data were processed

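RNA-seq libraries were made from poly(A) RNA of keratinocyte cultures, 3 for each genotype. After trimming and removal of ribosomal reads, the authors used STAR for alignment and HTSeq for counting unique alignments per gene, and the deposited values are raw counts without normalization. The submitters' processing notes give GRCm38. The strandedness of the counting is not given in the sources used here. The deposited repeat counts and the authors' tables of comparisons, which hold fold changes and p-values, were not used here. Entries that name no gene (5, with 8.73% to 12.9% of counted reads) were left out. Of 43629 identifiers, 42462 had a symbol, and exon lengths came from GENCODE M21.

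Counts were tested with edgeR 4.0.16 in R 4.3.3 (TMM factors, filterByExpr with minimum counts of 10 and 15, quasi-likelihood test without a block) with Benjamini-Hochberg adjustment over 16829 genes. Standard errors are the size of the fitted change divided by the root of its F statistic. The 95% intervals take the degrees of freedom of the same test. RPKM is CPM per kilobase of exon. On simulated data with 200 of 16829 genes changed, 184 were recovered (92%) with 11 false calls among 195. This share is a single total, not split by expression level or by size of change. Whether it holds for the genes of the 10 that were not called was not tested. Alternatives were RLE and upper-quartile factors, DESeq2 1.42.0, no filter, a mean RPKM of at least 1, the replicate block, the adjusted p alone, and leaving out each library.

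Same-numbered libraries were treated as pairs in the block and in the differences within pairs, though neither labels nor methods state a pairing. The main test and the permutation tests did not use these pairs. The table headers put same-numbered libraries in a shared lane, and their deviations from the group means correlated at 0.43, 0.28 and 0.30 across genes. Between control and Dnmt1Δ/Δep libraries of unlike number, the correlations ranged from -0.34 to 0.10. Replicates differed by more than sampling noise (50.6% to 72.9% of genes beyond 3 counting SD).

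All 10 genes are named with their values. Of the pathway lists, every called gene is named, with at most 3 others per list of the highest mean RPKM, and genes that overlap or neighbour the 10 are given with their place. Genes that a left-out library, the block or another setting moved over the threshold (Casp4, Nlrp1a, Pycard, Ccl20) were named after their values were seen. The 10 genes and the lists were chosen with earlier results of these data known.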

Additional observations from a re-analysis of the deposited data

How the results depend on the processing

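Of 118 values of the 10 genes under alternatives, 113 kept direction and side of the threshold. With 1 library left out, Il1rn ranged from -0.60 to 0.23, the latter without control replicate 3. Tslp ranged from -0.41 to 1.42 and was below 0 when control replicate 1, control replicate 2 (-0.22) or Dnmt1Δ/Δep replicate 2 (-0.05) was left out. Il33 ranged from 0.52 to 1.25, Il18 from 0.54 to 1.73, Il1b from 0.87 to 2.48, Il1r2 from -1.17 to -0.44 and Il1rl1 from 0.26 to 2.05. The cause was not tested.

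When 1 library was left out, 1 to 2 of the 10 genes were called higher (2, Il1a and Il33, without control replicate 3), 559 to 1183 of all genes were called higher and 15 to 180 lower. In the pathway lists, 10 (without Dnmt1Δ/Δep replicate 1) to 16 genes were called higher and 0 to 1 lower. A mean RPKM of at least 1, with fewer genes tested, gave 395 genes higher and 35 lower, and it left Il1b and Il1r2 untested. DESeq2 called 122 genes lower, no filter on low counts 107, and the adjusted p alone 279, as well as 1 of the 10 genes (Il1r1). With the replicate block, the log2 fold change of Il1a was 4.04 (adjusted p = 0.0051 by edgeR), 1173 genes were called higher, and beside Casp4 and Nlrp1a no call in the lists or among the 10 genes changed.

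Il1b, Il1r2, Casp1 and Nlrp1a had few reads, which limits the precision of their fold changes.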
